A study of Arabidopsis thaliana with 12 samples.

Results

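The Col-0 arm of a seedling heat experiment was described from the 4 arrays labelled Col-0, of 12 arrays in the whole series. Col-0 is the common laboratory accession of Arabidopsis thaliana. All seedlings grew on 0.5 strength MS plates with 1% sucrose at 22 °C to an age of 7 days. The heat group then spent 1 h at 37 °C before RNA extraction, and the control group was labelled as control with no treatment. Both Col-0 groups held 2 arrays, which the titles call biological replicates, with no further word on plates or pooling. The other 8 arrays came from the accession Ws and the line QK under both conditions. QK is known to lack the heat shock factors of class A1, the ones that start the response, and the labels name neither its alleles nor its background accession. No heat shock factor was among the genes analysed here.

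When plant cells are warmed above their growth temperature, proteins unfold and heat shock factors switch on genes for molecular chaperones. Small heat shock proteins hold unfolded proteins in a soluble state, Hsp70 and Hsp90 machines refold them with the help of co-chaperones, and chaperonins fold proteins inside plastids and mitochondria. Many of these genes are nearly silent at growth temperature and respond within minutes.

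The values are array signal intensities without a physical unit, so the signal of a probe set is read against other arrays and not as a level relative to other genes. Median signals of the 12 arrays lay between 75.6 and 87.3. Markers of green tissue were bright in all 4 Col-0 arrays, with signals of 3827 to 13905 for the 3 measured photosynthesis genes. The 7 measured root markers were mixed, from 22.3 to 6020, so the dimmest were no brighter than seed markers. The 5 seed and embryo markers stayed between 8.9 and 70.8, and the 1 measured pollen and flower marker between 8.5 and 12.5, which fits the label of seedlings. Summed over its list, root marker signal was 8393 in heat replicate 1 and 14641 in control replicate 1. In replicate 2 it was 9850 in the heat-labelled and 5799 in the control-labelled array. The brightest root marker was PYK10, with 2654 and 6020 in heat and control of replicate 1, and it was itself called lowered by heat in Ws. Whether root or leaf content had a part in any result was not tested. Fewer cells of a type and less RNA per cell cannot be told apart in such samples.

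The replicate 2 pair stood against its treatment labels. The array labelled Col-0 control replicate 2 carried the heat genes at high signal, and the array labelled Col-0 heat replicate 2 carried them at low signal. Of 13631 probe sets above the filter on dim signal, 228 (1.67%) were at least 4-fold higher in heat replicate 1 than in control replicate 1, with folds taken on signal plus 16 throughout. All 228 were lower in the heat-labelled than in the control-labelled array of replicate 2, 227 of them by at least 2-fold and 199 (87.3%) by at least 4-fold. The share of all tested probe sets lower by at least 4-fold in the heat-labelled array of replicate 2 was 1.66%. Their median log2 difference, heat minus control, was 3.39 in replicate 1 and -3.23 in replicate 2 as labelled.

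The genes that heat replicate 1 had at low signal showed the same mirror image. A further 47 probe sets (0.345%) were at least 4-fold lower in heat replicate 1 than in control replicate 1, with a median log2 difference of -2.30. In replicate 2 as labelled, 46 of the 47 were higher in the heat-labelled array, 13 of them by at least 4-fold, and the median was 1.63. The background for such a 4-fold excess in the heat-labelled array was 0.125%. No probe set past 4-fold in replicate 1 changed by 2-fold in the same labelled direction in replicate 2.

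The same order appeared beside Ws, whose pairs share no array with Col-0. Across the 13631 probe sets, Pearson's r between the Col-0 replicate 1 differences and the Ws differences was 0.902 for Ws replicate 1 and 0.876 for Ws replicate 2. For the Col-0 replicate 2 differences as labelled, r was -0.858 and -0.919 with the same Ws pairs. Between both Col-0 pairs r was -0.895. These correlations run across probe sets, which are not independent, and describe the arrays only. Neither the cause nor the stage at which labels and signals parted was tested, and no array was relabelled.

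**Figure D1:**
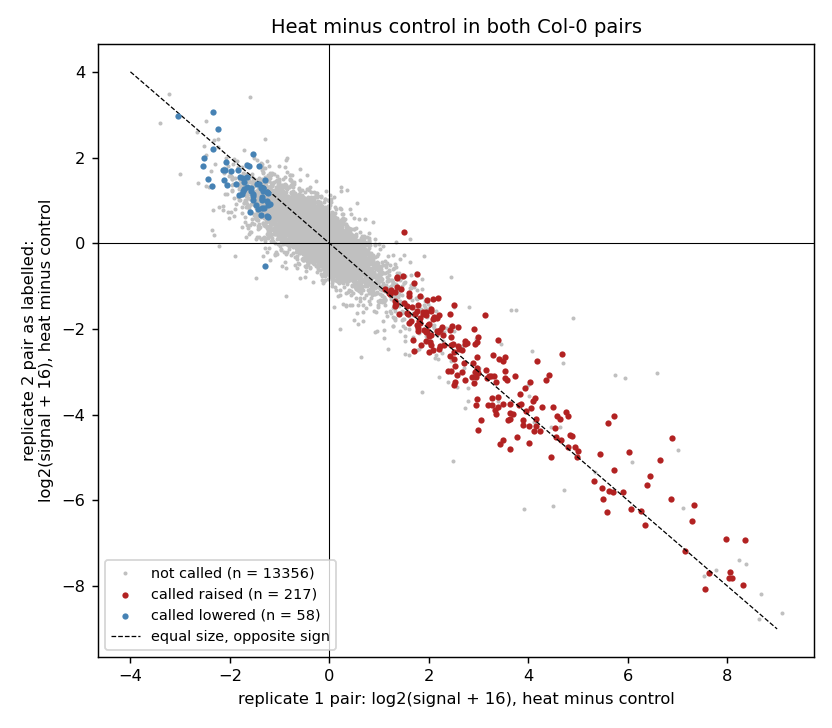
Each point is 1 of 13631 probe sets, with the log2(signal + 16) difference of heat minus control in the replicate 1 pair on the x axis and the same difference in the replicate 2 pair as labelled on the y axis. Probe sets called raised (n = 217, red) lie at the lower right and those called lowered (n = 58, blue) at the upper left, along the dashed line of equal size and opposite sign.

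Heat against control was therefore taken from replicate 1, with replicate 2 set beside it. With 1 array per arm, the error came from the replicates of Ws and QK in a limma fit over 10 arrays, and each Col-0 array was assumed to vary like those groups. In that fit 217 probe sets (1.59%) were raised and 58 (0.426%) were lowered in heat, at a Benjamini-Hochberg adjusted p under 0.05 and at least 2-fold, and 1839 had an unadjusted p under 0.05. With the replicate number as a block, limma called 392 raised (2.88%) and 444 lowered (3.26%). With all 12 arrays as labelled, limma called 0 in either direction and 8 had an unadjusted p under 0.05. Of the raised probe sets 216 and of the lowered probe sets 57 had the opposite sign in replicate 2 as labelled.

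The raised group held many transcripts of low signal at growth temperature, though not all of them were dim. Its median signal was 708.6 in heat replicate 1 and 49.5 in control replicate 1, and 109 of the 217 lay under 50 in control replicate 1. The median of all 18465 probe sets, tested or not, was 86.1 in control replicate 1, and their share under 50 was not counted. Control replicate 1 also entered the calls, so low signal there follows in part from the selection. Sizes ran from 1.13 to 8.35 on the log2 scale with a median of 2.96. In gene terms, 107 raised probe sets stood for 102 single genes, 97 had no gene in the annotation used, and 13 had several. Of 7227 genes tested in all, 102 were raised and 28 lowered, and the median difference was -0.09 in replicate 1 and 0.02 in replicate 2 as labelled.

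Cytosolic small heat shock proteins, which bind unfolding proteins in the cytosol and nucleus, split into responding and flat members. Of 6 tested genes, 2 were raised and 0 lowered, against 1.59% and 0.426% of all probe sets, and 4 were raised with the replicate block, against 2.88%. This list and those below were chosen with earlier results of these data known, so their counts are no test of enrichment. The list's median difference was 5.87 in replicate 1 and -5.15 in replicate 2 as labelled. AT2G29500, a class I small heat shock protein, gave 8346 signal units in heat replicate 1 and 26.0 in control replicate 1, against 21.2 in the heat-labelled and 7744 in the control-labelled array of replicate 2. Its log2 change was 7.64 ± 1.30 (SE) with a limma adjusted p of 0.0467. AT2G19310, another member of the family, had 3952 in heat replicate 1 and 145 in control replicate 1, with 255.5 and 4662 in the heat-labelled and control-labelled arrays of replicate 2. It changed by 4.63 ± 0.51 (SE) on the log2 scale, with a limma adjusted p of 0.0101. For both genes, heat replicate 1 and the array labelled control replicate 2 were the high pair.

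A further class I member, AT1G53540, had the largest difference of the list without passing the test. Its signal was 11502 in heat replicate 1 and 12.8 in control replicate 1, and 11.7 and 11977 in the heat-labelled and control-labelled arrays of replicate 2. The log2 value was 8.64 ± 1.91 (SE), with a limma adjusted p of 0.0970. Among the replicates that gave the error, QK heat had 18.2 and 914.7 at this gene, while Ws heat had 9266 and 12518. AT1G54050, a class III member, had 6015 in heat replicate 1 and 27.5 in control replicate 1, with 60.3 and 5551 in replicate 2 as labelled, a log2 value of 7.12 ± 1.42 (SE) and a limma adjusted p of 0.0722. Not every member had this pattern. AT4G21870 had 535.9 in heat replicate 1 and 402.7 in control replicate 1, and 238.4 and 207.7 in replicate 2 as labelled. AT5G54660 stayed between 92.1 and 102.2 in all 4 arrays, and its log2 value of -0.04 ± 0.25 (SE) turned positive under quantile and 75th percentile scaling.

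Of 4 tested small heat shock proteins of the organelles, 3 were raised and 0 were lowered, against 1.59% and 0.426% of all probe sets. All 4 were raised with the replicate block, against 2.88%. AT1G52560, a small heat shock protein of the organelles, had the largest log2 change among the called genes. Its signal was 6547 in heat replicate 1 and 8.1 in control replicate 1, and 11.8 and 6264 in the heat-labelled and control-labelled arrays of replicate 2. The change was 8.09 ± 0.90 (SE) with a limma adjusted p of 0.0107, or 272-fold on signal plus 16. The mitochondrial member AT5G51440 had 7118 in heat replicate 1 and 28.6 in control replicate 1, with 64.2 and 5540 in replicate 2 as labelled. It changed by 7.32 ± 1.12 (SE), with a limma adjusted p of 0.0331. The peroxisomal member AT5G37670 had 5156 in heat replicate 1 and 20.7 in control replicate 1, with 15.4 and 4551 in replicate 2 as labelled, and changed by 7.14 ± 0.92 (SE), with a limma adjusted p of 0.0183.

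ATHSP22.0, the small heat shock protein of the endoplasmic reticulum, missed the threshold. It had 6969 in heat replicate 1 and 16.1 in control replicate 1, with 22.7 and 7621 in the heat-labelled and control-labelled arrays of replicate 2. The log2 value was 7.77 ± 1.4 (SE) and the limma adjusted p 0.0538. Among the replicates that gave the error, QK heat had 17.5 and 358.4, while Ws heat had 3932 and 3564. Over the 4 genes, the arrays fell into a high pair and a low pair that did not overlap, and the labels of replicate 2 ran against that split. These pairs were read from the values, and the share of all tested probe sets with such a split was not counted.

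**Figure D2:**
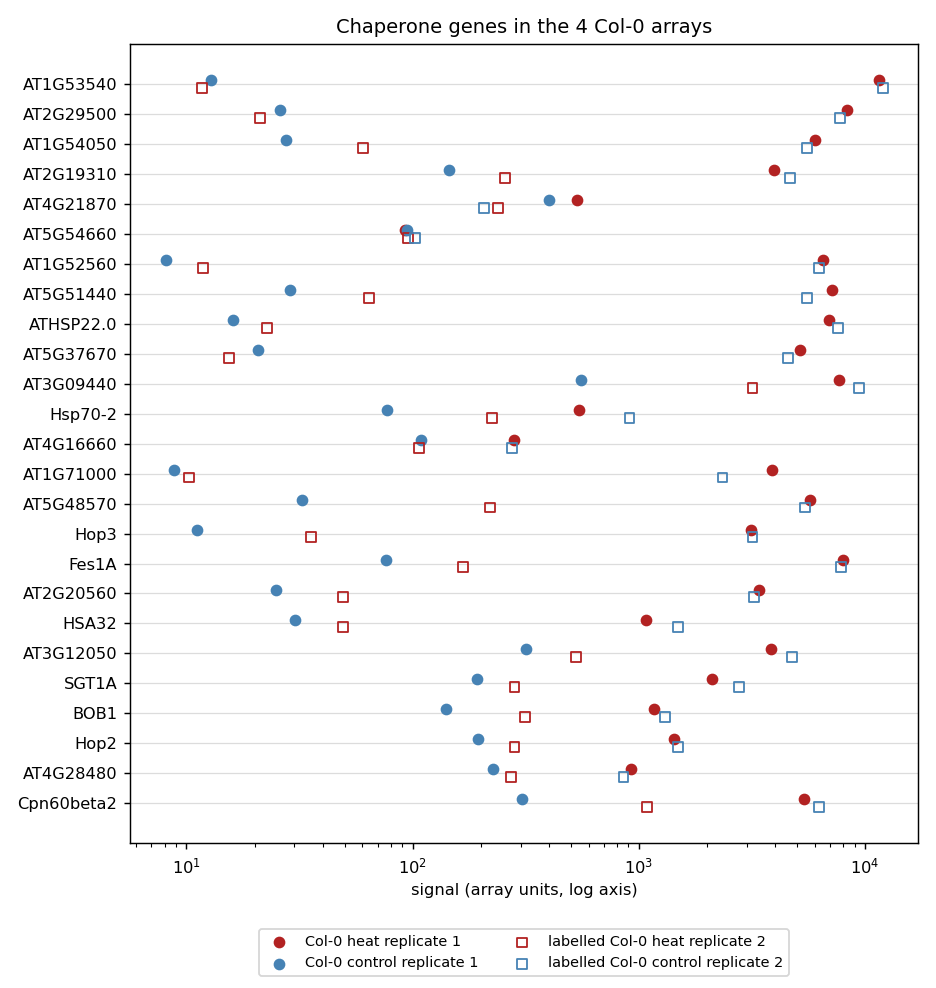
Signal on a log axis for 25 genes of the chaperone and co-chaperone lists in the 4 Col-0 arrays. Circles stand for replicate 1, squares for replicate 2, red for the heat label and blue for the control label. For AT1G53540 the red circle (11502) and the blue square (11977) sit at the right and the blue circle (12.8) and the red square (11.7) at the left, while the 4 symbols of AT5G54660 lie together between 92.1 and 102.2.

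The large ATP-driven chaperones were thinly covered, with 3 Hsp70 genes tested of the list of Hsp70, Hsp90 and Hsp100 proteins. Only Hsp70-2 was raised among the 3 (1.59% of all probe sets), and all 3 were raised with the block (2.88% of all probe sets). Hsp70-2, a cytosolic Hsp70, had 543.4 in heat replicate 1 and 76.7 in control replicate 1, and 224.6 and 910.4 in the heat-labelled and control-labelled arrays of replicate 2. It changed by 2.59 ± 0.35 (SE) with a limma adjusted p of 0.0205. AT3G09440, a constitutive cytosolic Hsp70, had 7721 in heat replicate 1 and 556.7 in control replicate 1, with 3185 and 9416 in replicate 2 as labelled. Its log2 value was 3.76 ± 0.79 (SE), with a limma adjusted p of 0.0830. Here both low arrays were far from silent, and they differed more from each other than both high arrays did. AT4G16660, an Hsp70 relative of the endoplasmic reticulum, had 281.4 in heat replicate 1 and 109.2 in control replicate 1, with 107.0 and 274.9 in replicate 2 as labelled, a log2 value of 1.25 ± 0.36 (SE) and a limma adjusted p of 0.192.

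Co-chaperones help Hsp70 and Hsp90 bind and release their clients. The list of that name used here also holds HSA32, a heat-stress-associated protein, which is counted among its raised genes. Of 16 tested genes, 11 were raised and 0 were lowered, against 1.59% and 0.426% of all probe sets, and the block left both counts as they were. The list's median difference was 3.13 in replicate 1 and -2.74 in replicate 2 as labelled. AT1G71000, a J-domain protein of the kind that hands clients to Hsp70, had 3868 in heat replicate 1 and 8.8 in control replicate 1, and 10.3 and 2346 in the heat-labelled and control-labelled arrays of replicate 2. It changed by 7.29 ± 0.45 (SE), with a limma adjusted p of 0.0016. A second J-domain gene, AT2G20560, had 3389 in heat replicate 1 and 24.8 in control replicate 1, with 49.3 and 3222 in replicate 2 as labelled, and changed by 6.38 ± 0.67 (SE).

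The raised genes included partners of the Hsp70 and Hsp90 cycle. Hop3, an adaptor that joins Hsp70 to Hsp90, had 3150 in heat replicate 1 and 11.1 in control replicate 1, with 35.5 and 3182 in the heat-labelled and control-labelled arrays of replicate 2. Its change was 6.87 ± 0.81 (SE), with a limma adjusted p of 0.0133. Its relative Hop2 had 1425 in heat replicate 1 and 194.5 in control replicate 1, with 282.3 and 1492 in replicate 2 as labelled, and was raised by 2.78 ± 0.30 (SE). The relative Hop1 had 276.5 in heat replicate 1 and 265.7 in control replicate 1, with 172.9 and 199.9 in replicate 2 as labelled, a log2 value of 0.05 ± 0.27 (SE). The Hop family thus held 2 raised genes and 1 whose 4 arrays stayed within 172.9 to 276.5.

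AT5G48570, an immunophilin of the FKBP type known to bind Hsp90, had 5721 in heat replicate 1 and 32.3 in control replicate 1, and 219.2 and 5432 in the heat-labelled and control-labelled arrays of replicate 2. It changed by 6.89 ± 1.20 (SE), with a limma adjusted p of 0.0488. Fes1A, a nucleotide exchange partner of Hsp70, had 7988 in heat replicate 1 and 76.1 in control replicate 1, with 166.6 and 7864 in replicate 2 as labelled, and changed by 6.44 ± 0.68 (SE). HSA32, a heat-stress-associated protein known for long-lasting acquired thermotolerance, had 1075 and 30.2 in heat and control of replicate 1 and 49.4 and 1489 in replicate 2 as labelled. AT3G12050, related to the Hsp90 activator Aha1, changed by 3.53 ± 0.48 (SE), with 527.8 and 4768 in replicate 2 as labelled. SGT1A, an Hsp90 partner, changed by 3.34 ± 0.24 (SE), with 282.1 and 2783 in replicate 2 as labelled. BOB1, a NudC-type chaperone needed for growth and thermotolerance, changed by 2.91 ± 0.38 (SE), with 313.4 and 1305 in replicate 2 as labelled. The smallest change among the 11 raised genes was that of the J-domain gene AT4G28480, at 1.94 ± 0.28 (SE), with 271.9 and 856 in replicate 2 as labelled. The 5 tested members without a call were Hop1, AT4G27890 (described with the accessions) and 3 others whose log2 values lay between 0.13 and 0.14.

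In the plastid, the chaperonin subunit Cpn60beta2 had 5394 in heat replicate 1 and 304.0 in control replicate 1, with 1087 and 6250 in the heat-labelled and control-labelled arrays of replicate 2. Its log2 value of 4.08 ± 0.75 (SE) had a limma adjusted p of 0.0586. It was the 1 chaperonin gene tested of 2 with a probe set.

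Among the genes with a log2 value given here, 9 crossed the threshold with the replicate block. By limma, the blocked adjusted p was 0.0277 for AT1G53540, 0.0132 for AT1G54050, 0.0171 for ATHSP22.0, 0.00568 for AT3G09440, 0.0265 for AT4G16660 and 0.00402 for Cpn60beta2. It was 0.0266 for PYK10, 0.0105 for XTH19 and 0.0276 for rps18, which are given with their lists. XTH19 and rps18 were named after their values were seen. Over all alternatives the adjusted p of these 9 reached 1.0 as the highest value, and the lowest was between 0.000329 for ATHSP22.0 and 0.0276 for rps18.

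Some raised calls rested on single Ws or QK arrays in the error estimate, with every log2 change kept. AT2G29500, AT5G51440 and AT1G67360 lost the call without any 1 Ws array or either QK control array, with limma adjusted p up to 0.104, 0.0801 and 0.0888. AT5G48570 and AT5G51740 lost it without either Ws heat array or either QK control array, with values up to 0.108 and 0.0554. AT5G37670, AT1G30070 and AT1G26800 lost it without either Ws heat array, at up to 0.0507, 0.0526 and 0.0509. AT3G12050 and Hsp70-2 lost it without either QK control array, at up to 0.0542 and 0.0546, and AT1G11270 without QK heat replicate 2, at 0.05001. AT4G28480 lost it without any 1 of the 8 arrays, at up to 0.0625.

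Outside the chaperone lists, the raised genes named here were chosen by rank of change or of signal in heat replicate 1. AT3G07090, a thiol peptidase of the PPPDE family, had 9873 in heat replicate 1 and 450 in control replicate 1, and 1063 and 9117 in the heat-labelled and control-labelled arrays of replicate 2. TIL, a lipocalin known for a role in thermotolerance, had 6881 in heat replicate 1 and 1024 in control replicate 1, with 1349 and 6903 in replicate 2 as labelled. TIL was already bright in control replicate 1 and changed by 2.73 ± 0.29 (SE), with a limma adjusted p of 0.00885. AT1G67360, a lipid droplet protein of the rubber elongation factor family, had 6221 and 101.9 in heat and control of replicate 1 and 370.4 and 6288 in replicate 2 as labelled. AT1G30070, a protein with an SGS domain, had 6439 and 48.8 in heat and control of replicate 1 and 211.2 and 7537 in replicate 2 as labelled, and changed by 6.64 ± 0.87 (SE). AT5G25450, a small subunit of the mitochondrial cytochrome c reductase, had 6140 in heat replicate 1 and 64.3 in control replicate 1, with 66.4 and 6213 in replicate 2 as labelled. Both high arrays and both low arrays lay close together at this gene, and the limma adjusted p was 0.0021.

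A further 5 raised genes, picked after their values had been seen and from no list, are given as single genes. AT1G26800, a RING-type ubiquitin ligase, changed by 3.80 ± 0.50 (SE), with 275.8 and 3972 in replicate 2 as labelled. AT4G15420, related to the segregase cofactor UFD1, changed by 4.02 ± 0.26 (SE), with 137.2 and 2920 in replicate 2 as labelled. DER1, a derlin of the endoplasmic reticulum degradation route, had 1454 and 182.3 in heat and control of replicate 1 and 208.3 and 1549 in replicate 2 as labelled. AT5G51740, related to the mitochondrial protease OMA1, had 1536 and 196.3 in heat and control of replicate 1 and 123.4 and 1192 in replicate 2 as labelled. AT2G27580, a zinc finger protein of the A20/AN1 stress family, changed by 2.19 ± 0.24 (SE), with 215.9 and 959.2 in replicate 2 as labelled.

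Transcripts assigned to the mitochondrial genome were higher in heat as a group. Of 9 tested genes, 8 were raised and 0 lowered, against 1.59% and 0.426% of all probe sets, and the list's median difference was 3.49 in replicate 1 and -3.98 in replicate 2 as labelled. The NADH dehydrogenase subunit nad6 had 1389 in heat replicate 1 and 10.8 in control replicate 1, and 13 and 1128 in the heat-labelled and control-labelled arrays of replicate 2. It changed by 5.71 ± 0.22 (SE), with a limma adjusted p of 0.000684. Its fellow subunit nad4L had 651.5 and 19.5 in heat and control of replicate 1, with 14.7 and 623.1 in replicate 2 as labelled, and changed by 4.23 ± 0.26 (SE). For nad1, the brightest probe set had 502.4 and 22.0 in heat and control of replicate 1 and 17.3 and 750.6 in replicate 2 as labelled, a change of 3.77 ± 0.45 (SE).

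Assignment of these signals is uncertain, since Arabidopsis chromosome 2 is known to carry a large copy of mitochondrial DNA near its centromere, where the AT2G07 loci lie. Of 24 tested AT2G07 loci, 10 were raised at any of their probe sets. Of all 7227 tested genes, 102 were raised at their brightest probe set, so these counts follow unlike rules. Probes of near-identical copies cannot tell the copies apart. In the plastid genome list, of 66 tested genes 0 were raised and 0 lowered without the block, against 1.59% and 0.426% of all probe sets. With the block 1 was lowered, where 3.26% of all probe sets were. Counts so near the shares of all probe sets are no result about plastid genes. That gene was rps18, a ribosomal protein gene, with 63.0 and 174.4 in heat and control of replicate 1, 535.3 and 283.3 in replicate 2 as labelled, and a log2 value of -1.27 at a limma adjusted p of 0.794 without the block. The plastid list's median difference was -0.02 in replicate 1 and 0.29 in replicate 2 as labelled.

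By median signal, the plastid genes differed between replicate numbers. Their median signal was 451.5 in heat replicate 1 and 390.1 in control replicate 1, and 1657 and 1083 in the heat-labelled and control-labelled arrays of replicate 2. In the heat label 58 of 66 were higher in replicate 2, and in the control label 57 of 66. The share of all tested probe sets higher in replicate 2 was not counted, so these counts have no background beside them. The clock gene GI ran the other way, with 363.3 and 438.6 in heat and control of replicate 1 and 75 and 60 in replicate 2 as labelled. By the plastid medians and at GI, both arrays labelled replicate 2 thus stood apart from replicate 1 in the same direction, whatever their treatment label. At GI this was not particular to Col-0. Ws had 369.7 and 552.1 in heat and control of replicate 1, and 89.4 and 108.7 in replicate 2. The plastid medians were not taken in Ws.

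Genes lowered in heat had smaller changes than those raised. The 58 lowered probe sets had a median signal of 59.5 in heat replicate 1 and 224.2 in control replicate 1, and sizes of 1.20 to 3.04 on the log2 scale with a median of 1.58. They stood for 28 single genes, while 29 had no gene in the annotation used and 1 had several. None of the lists held a lowered gene in the fit without the block, where 0.426% of all probe sets were lowered. This count rests on the error estimate: without 1 array it was 6 without either Ws heat array, 8 without either QK heat array, 22 without either Ws control array, and 15 or 16 without a QK control array. None of the 15 lowered genes named here kept its call without each of the 8 arrays in turn.

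The lowest value among the called genes was that of AT4G13580, a dirigent protein of the kind that guides phenolic coupling in cell walls. Its signal was 57.2 in heat replicate 1 and 407.8 in control replicate 1, and 153.0 and 32.8 in the heat-labelled and control-labelled arrays of replicate 2. The change was -2.53 ± 0.34 (SE) on the log2 scale with a limma adjusted p of 0.0198, or 5.79-fold lower. AT4G32460, which encodes a DUF642 protein of the wall, had 210.9 in heat replicate 1 and 1212 in control replicate 1, with 890.6 and 305.8 in replicate 2 as labelled. It changed by -2.44 ± 0.38 (SE), with a limma adjusted p of 0.0345. In both genes the lowest signals were those of heat replicate 1 and the array labelled control replicate 2.

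AT2G01820, a leucine-rich repeat receptor kinase of the TMK family, had 104.0 and 503.0 in heat and control of replicate 1 and 432.7 and 146.4 in replicate 2 as labelled, a change of -2.11 ± 0.29 (SE). The aspartyl protease genes AT3G61820 and AT3G54400 changed by -2.09 ± 0.35 and -1.74 ± 0.25 (SE). In replicate 2 as labelled, AT3G61820 had 272.9 and 72.1 and AT3G54400 had 820 and 275.6 in the heat-labelled and control-labelled arrays. AT2G25250, AT1G28400, AT3G54200, AT5G01710, AT2G41980, AT3G24080 and AT1G67330 made up the rest of the 12 lowest, with log2 changes from -2.51 to -1.58. In replicate 2 as labelled their log2 differences ran from 1.23 to 1.99. Of the cell wall genes picked after their values had been seen, ATPMEPCRB, a pectin methylesterase, had 10.5 in heat replicate 1 and 61.1 in control replicate 1, with 45.2 and 11.8 in replicate 2 as labelled. AT1G08280, a galactosyltransferase of the GALT29A type, had 23.9 and 92.5 in heat and control of replicate 1 and 60.8 and 27.8 in replicate 2 as labelled.

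**Figure D3:**
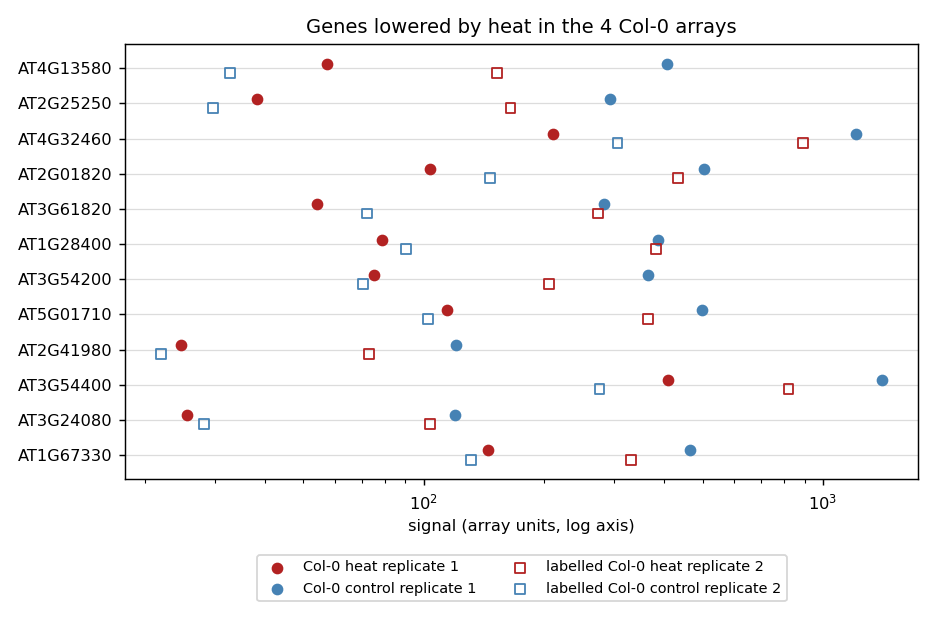
Signal on a log axis for the 12 called genes with the lowest log2 change, with circles for replicate 1, squares for replicate 2, red for the heat label and blue for the control label. In AT4G32460 the red circle (210.9) and the blue square (305.8) lie left of the red square (890.6) and the blue circle (1212), and the other genes show the same split.

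Other lists gave values without calls in the fit without the block, where 1.59% of all probe sets were raised and 0.426% lowered. Of 18 expansins and xyloglucan enzymes, which loosen and remodel the wall, 0 were called, 1 was lowered with the block (3.26% of all probe sets), and the median difference was -0.83 in replicate 1 and 0.75 in replicate 2 as labelled. The gene called with the block was XTH19, a xyloglucan enzyme, with 65.1 and 396.3 in heat and control of replicate 1, 500 and 285.2 in replicate 2 as labelled, and a log2 value of -2.35 at a limma adjusted p of 0.445 without the block. The list member EXGT-A3 had 348.5 and 831.7 in heat and control of replicate 1, and 1338 and 527.9 in replicate 2 as labelled, with a limma adjusted p of 0.284. The expansin EXPA8 had a log2 value of -1.31 ± 1.71 (SE), and its Ws arrays had 192.1 and 889.6 in heat and 663.3 and 1921 in control. PYK10, a root beta-glucosidase of endoplasmic reticulum bodies, had 2654 in heat replicate 1 and 6020 in control replicate 1, with 4671 and 1766 in the heat-labelled and control-labelled arrays of replicate 2, and a limma adjusted p of 0.116. RCA, the activase of Rubisco, had 8543 and 12759 in heat and control of replicate 1 and 13905 and 11189 in replicate 2 as labelled, with a limma adjusted p of 0.386.

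Folding genes of the endoplasmic reticulum had no call among 5, with a median difference of 0.20 in replicate 1. Over all probe sets 1.59% were raised and 0.426% lowered, so 0 of 5 lies near those shares. ATERDJ3B, a J-domain protein there, had 531.6 and 398.5 in heat and control of replicate 1 and 442.9 and 582.9 in replicate 2 as labelled. The calreticulin gene CRT1b had 614.5 and 533.1 in heat and control of replicate 1, with 827.0 and 910.9 in replicate 2 as labelled. Not all members were flat: AT4G29520 had 165 and 73.6 in heat and control of replicate 1, and 58.3 and 152.2 in replicate 2 as labelled. In Ws, 1 gene of this list was raised. BZIP28, a membrane-bound transcription factor of the unfolded protein response, had 606.8 and 296.2 in heat and control of replicate 1 and 228.9 and 614.5 in replicate 2 as labelled, with a limma adjusted p of 0.169. STZ, a zinc finger stress regulator, was no mirror image between the Col-0 pairs, with 846.0 and 726.1 in heat and control of replicate 1, against 181.2 and 777.6 in replicate 2 as labelled. The Ws arrays had 894.8 and 792.8 in heat and 239.5 and 92.6 in control. Lists of 7 cytochromes P450, 23 UDP-glycosyltransferases, 9 glutathione S-transferases, 5 photosystem proteins and 3 auxin response genes also held 0 calls. Such counts lie near the shares of all probe sets. The lists of osmolyte and antioxidant enzymes and of SR splicing factors had no gene with a probe set of its own and are not analysed here.

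Ws is the other accession of the series, and its heat response came from 4 arrays in the same 10-array fit, with QK replicates in the error. There, 471 probe sets (3.46%) were raised and 276 (2.02%) were lowered in Ws by limma, and without QK 316 and 99. Of the probe sets called in Col-0, 207 of 217 raised (95.4%) and 49 of 58 lowered (84.5%) were also called in the same direction in Ws. The difference in response, Col-0 minus Ws, was called for 0 probe sets by limma, with 156 at an unadjusted p under 0.05, and the replicate block also gave 0, with 415. A call in 1 accession and not in the other is therefore no shown difference between them. Calls in both accessions rest on the same error estimate, from Ws and QK replicates, so their overlap follows in part from the fit.

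The genes with the smallest p for a higher response in Col-0 were dim in most arrays. AT2G07777 and AT4G18450 were brighter in a pair of Col-0 arrays, and AT1G11270 mainly in heat replicate 1. AT2G07777, an AT2G07 locus of chromosome 2, had 196.0 in heat replicate 1 and 20.8 in control replicate 1, and 13.3 and 261.0 in the heat-labelled and control-labelled arrays of replicate 2. All 8 Ws and QK arrays had between 7.9 and 12.9. The interaction was 2.68 ± 0.23 (SE) on the log2 scale, with a limma adjusted p of 0.128. A dimmer probe set of nad1, singled out after its values were seen, had 176.9 and 16.1 in heat and control of replicate 1 and 13.5 and 138.6 in replicate 2 as labelled, with 7.8 to 9.3 in Ws and QK. The brightest probe set of the same gene had 411.7 and 612.7 in Ws heat and 34 and 23.4 in Ws control, so the probe sets of nad1 disagreed between accessions.

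AT4G18450, an ERF-type transcription factor, had 150.9 and 9.1 in heat and control of replicate 1 and 10.4 and 111.4 in replicate 2 as labelled, while Ws had 29.6 and 14.7 in heat and 9.9 and 9.3 in control. Its interaction of 2.19 ± 0.36 (SE) had a limma adjusted p of 0.601. AT1G11270, an F-box protein gene, had 137.1 and 28.9 in heat and control of replicate 1 and 21.2 and 44.8 in replicate 2 as labelled, with an interaction of 1.76 ± 0.28 (SE) and a limma adjusted p of 0.594. For the first 3 of these probe sets, heat replicate 1 and the array labelled control replicate 2 were the only 2 of the 12 arrays above 100 signal units. These probe sets were picked for a small interaction p or after their values were seen. The filter on dim signal also asked for at least 2 arrays above it. A pattern of 2 bright arrays thus follows in part from the choice and is no separate support.

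In the other direction, AT4G27890, a NudC-type relative of BOB1, had 26.7 in heat replicate 1 and 12.4 in control replicate 1, and 17.3 and 22.4 in the heat-labelled and control-labelled arrays of replicate 2. In Ws it had 328.3 and 322.4 in heat and 21.7 and 30.1 in control, and the interaction was -2.45 ± 0.26 (SE), with a limma adjusted p of 0.185. AT5G55640, of unnamed function, had 130.2 and 117.3 in heat and control of replicate 1 and 163.7 and 192.8 in replicate 2 as labelled, against 882.9 and 1096 in Ws heat and 131.4 and 126.7 in Ws control. AT2G32760, known as the VPS38 subunit of a lipid kinase complex in vesicle traffic, had 90.3 and 110.3 in heat and control of replicate 1 and 125.7 and 99.7 in replicate 2 as labelled, against 583.3 and 700.6 in Ws heat and 122.2 and 113.0 in Ws control. The interactions were -2.65 ± 0.30 and -2.54 ± 0.28 (SE), each with a limma adjusted p of 0.185. The Col-0 arrays of these 3 genes overlapped the Ws control arrays or lay just below or above them. How well the probes match the Ws sequence was not tested.

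**Figure D4:**
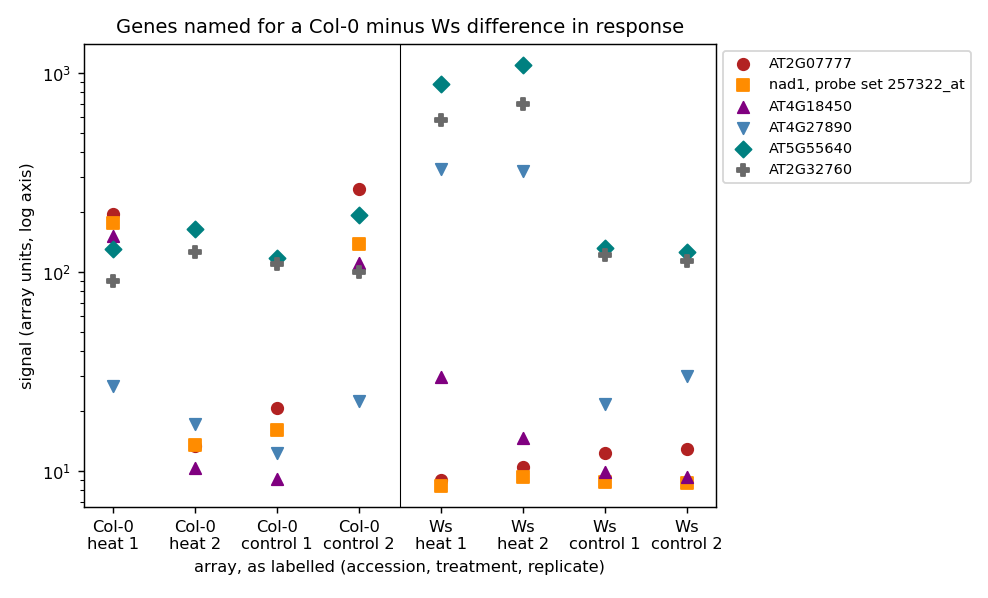
Signal on a log axis for 6 probe sets named for a difference between accessions, by array as labelled, with Col-0 left of the vertical line and Ws right of it. AT2G07777, nad1 and AT4G18450 are high in Col-0 heat 1 and Col-0 control 2 (111.4 to 261.0), and AT4G27890, AT5G55640 and AT2G32760 are high in both Ws heat arrays (322.4 to 1096).

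Single probe sets called in Col-0 departed from the mirror image in 2 cases. A raised probe set without a gene in the annotation used had 865.3 and 295.5 in heat and control of replicate 1 but 1266 and 1049 in replicate 2 as labelled, and 142.5 to 229.1 in Ws and QK. HTB11, a histone H2B gene, was lowered with 105.9 and 283.6 in heat and control of replicate 1, and had 33.8 and 56.1 in replicate 2 as labelled. In Ws and QK it lay between 8.5 and 11.4, so both were brighter in the 4 Col-0 arrays than in any other array.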

How the data were processed

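Seedling RNA was labelled with biotin and hybridised to Affymetrix arrays. The deposited values are signal intensity per probe set on a linear scale, made by the authors with GCOS 1.4 per the submitters' processing notes; summary algorithm, scaling target and genome build are not given in the sources used here. Of 18465 probe sets, 10396 had 1 gene, 398 several and 7671 none in the platform annotation. Groups follow the labels. Signals were transformed to log2(signal + 16), and 13631 probe sets above the 35th percentile of an array in at least 2 arrays were tested with limma 3.58.1 in R 4.3.3 (1 mean per group, trended empirical Bayes, two-sided, Benjamini-Hochberg). The 10-array fit leaves out both Col-0 replicate 2 arrays and has 4 residual degrees of freedom. The script was tested on simulated data.

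Members, lists and tests were chosen with earlier results of these data known. Named genes are the 12 highest and 12 lowest called, the 8 brightest raised, up to 3 called per list and direction or 2 bright members where none was called, and 3 in each direction for Col-0 minus Ws; other list members, and genes said to be picked after their values were seen, were added. A gene takes its brightest probe set. Replicate numbers paired the Ws and QK groups (r of deviations 0.587 to 0.807), and each Col-0 group with them (0.352 to 0.565), while the Col-0 groups with each other had r = -0.173. Scaling, pseudocount, filter, variance trend, fold minimum, arrays and block were varied. The number of arrays limits the precision.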

Additional observations from a re-analysis of the deposited data

Results flagged for a closer look

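For 2 named genes called in 1 accession, the log2 difference of the Col-0 replicate 1 pair had the opposite sign to that of both Ws pairs, and neither difference between accessions passed its test. AT2G07777 had a log2 difference, heat minus control, of 2.53 in the Col-0 replicate 1 pair and of -0.18 and -0.13 in the Ws pairs, and the interaction itself had a limma adjusted p of 0.128. Its Ws signals of 9.0 to 12.9 lay near the floor of the array. AT2G32760 had -0.25 in the Col-0 replicate 1 pair and 2.12 and 2.47 in the Ws pairs, with a limma adjusted p of 0.185 for the interaction. In the replicate 2 pair as labelled, both genes had the opposite sign to replicate 1.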

How the results depend on the processing

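The result that turns on the arrays used is the whole Col-0 response. With all 12 arrays, with their replicate block, with only the 4 Col-0 arrays, with those blocked, and with those in a crossed pairing chosen after seeing the data, limma called 0 probe sets raised and 0 lowered. These settings average pairs of opposite sign, and 15 of 71 genes given a log2 value then changed sign: AT1G53540 (-0.057), AT2G29500 (-0.034), AT5G37670 (-0.023), Hop1 (-0.069), AT4G15420 (-0.12), AT5G51740 (-0.12), nad4L (-0.073), nad1 (-0.38), PYK10 (0.11), STZ (-0.90), BZIP28 (-0.18), EXGT-A3 (0.049), AT2G07777 (-0.36), AT5G55640 (-0.042) and AT2G32760 (0.022). The interactions of AT2G07777 (-0.20) and AT4G18450 (-0.32) also turned in both 12-array fits. AT5G54660 came to 0.10 with quantile and 0.036 with 75th percentile scaling. The replicate block in the 10-array fit gave 392 raised and 444 lowered and, among the genes given a log2 value, changed only the calls of the 9 listed in the text. Col-0 replicate 1 with Ws alone gave 122 raised and 3 lowered. Lowered calls numbered 27 with quantile scaling, 34 with 75th percentile scaling and 13 at a 4-fold minimum. Leaving out each Ws or QK array gave 161 to 185 raised, 6 to 22 lowered and 0 interactions, and 21 of 33 raised and 0 of 15 lowered text genes kept their call each time. Interaction calls were 2 higher (AT2G07777, nad1) and 1 lower with a pseudocount of 64 or without the filter, and 5 lower with 12 blocked arrays. In replicate 1, heat above control counted 465 at 2-fold and 132 at 8-fold, and below it 803 and 4, or 105 and 10 with pseudocounts of 1 and 64. In replicate 2 as labelled, these were 525 and 3 above, 468 and 136 below, and 43 and 8 above with those pseudocounts. With 1 usable array per Col-0 arm, no value has a replicate check within Col-0 that follows the labels.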
